A study of Mus musculus with 18 samples.

Results

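The genes of 2 complexes of telomere maintenance were followed through sorted mouse thyroid cells: Tert, Dkc1, Wrap53 and Tep1 of telomerase, and Terf1, Terf2, Terf2ip, Tinf2, Acd and Pot1a of shelterin. They were taken by symbol, which the deposited table writes in capitals (TERT, DKC1, WRAP53, TEP1, TERF1, TERF2, TERF2IP, TINF2, ACD and POT1A), and 10 of 10 were present among its 23626 genes. Messenger RNA had been sequenced from 18 libraries of cells sorted for a yellow fluorescent protein (YFP), which the labels call thyrocytes, all labelled naive and taken at 20 weeks. The series sets out to learn what more telomerase adds to a thyroid cancer driven by Braf.

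The 15 tumour libraries fell into 3 groups that all carried BrafV600E, which leaves the kinase Braf switched on. In 4 tumour libraries it was joined by K5-Tert, a transgene in which the keratin 5 promoter, active in basal cells of stratified epithelia, drives Tert (K5-Tert tumours). In 7 it was joined by Tert-123C>T, a base change in the promoter of Tert itself (Tert-123 tumours), and in 4 it stood alone (Braf tumours). The other 3 libraries lacked the Braf mutation and were each 1 pool of samples: a K5-Tert pool, a pool with Tert-123C>T, and a wild-type pool. Nothing in the labels says that the tumour libraries came from separate mice, so p-values measure the spread between these samples, which may be technical. Strain, sex and the driver of YFP are not given there.

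Telomerase is a reverse transcriptase that adds telomeric repeats to chromosome ends. Tert is its catalytic subunit, the RNA Terc is its template, Dkc1 (dyskerin) holds the RNA in a stable particle, Wrap53 (TCAB1) brings that particle to Cajal bodies, and Tep1 is a protein found associated with it. Shelterin covers the ends: Terf1 and Terf2 bind double-stranded repeats, Terf2ip (RAP1) rides on Terf2, Tinf2 (TIN2) bridges the duplex-binding proteins to Acd (TPP1), and Acd carries Pot1a, which binds the single-stranded overhang and with Acd recruits telomerase. In human thyroid cancers, C-to-T changes in the TERT promoter often accompany mutant BRAF and create a binding motif for ETS transcription factors.

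The promoter is shown first because the Tert-123 allele differs from wild type there. The RefSeq window of Tert (GRCm38.p6, chr13:73626661-73626960, plus strand) runs from 250 bases before the annotated start to 50 bases after it, and the capital marks the base that Tert-123C>T names when its position is counted back from the start codon:
Tert promoter: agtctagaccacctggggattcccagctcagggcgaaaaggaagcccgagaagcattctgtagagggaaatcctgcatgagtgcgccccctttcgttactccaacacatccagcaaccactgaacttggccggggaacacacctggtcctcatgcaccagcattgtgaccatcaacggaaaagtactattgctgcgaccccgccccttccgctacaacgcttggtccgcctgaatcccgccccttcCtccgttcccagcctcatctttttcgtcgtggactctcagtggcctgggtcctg
The labels do not say where that count begins. Counted from the start codon at position 73627030, the base is at position 73626907, where the reference has C as the allele's name requires, and counted from the RefSeq start the base is G. On the first reading the 41 bases around it (chr13:73626887-73626927) compare as follows, with the changed base in capitals:
reference: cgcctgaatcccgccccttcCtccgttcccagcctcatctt
with Tert-123C>T: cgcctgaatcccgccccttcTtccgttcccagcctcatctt
The letters searched for were GGAA, the core that ETS factors bind, and CGGAA, which contains it, on either strand. GGAA was found 2 times in both versions of the stretch, and CGGAA 0 times in the reference and 1 time with the change. The whole reference window held 8 matches to GGAA and 2 to CGGAA. Among all 32851 RefSeq promoter windows of the same length, 96% held GGAA and 29.9% held CGGAA. Of the other members, 7 had a RefSeq window. CGGAA was present at least once in those of Pot1a, Acd, Terf2, Terf2ip, Wrap53 and Tinf2, and was not found in that of Dkc1. A match is a description of letters and does not show that a factor binds.

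Levels are given as TPM, a transcript abundance relative to a fixed total that is also scaled for transcript length, and the read depth is unknown. The RNA of ribonuclease P, Rpph1, took 43.7% to 68.8% of all TPM. The genes that reached 1 TPM numbered 10958 to 12699 in K5-Tert tumours, with 12627 in tumour 1, and 13103 to 15045 in Tert-123 tumours, against 13275 to 13904 in Braf tumours, so all 4 K5-Tert tumours lay below every other tumour. K5-Tert tumours 2, 3 and 4 stood apart: the nuclear RNA Malat1 was at 1191, 1908 and 1050 TPM in them and at 5902 TPM in K5-Tert tumour 1, against 5762 to 7496 TPM in Braf tumours. The median of all genes was lower by 0.49 on the log2 scale in K5-Tert than in Braf tumours, so each change is also given after scaling of the TMM type (trimmed mean of M-values), which removes that shift. All 12 thyrocyte markers were detected, but thyroglobulin (Tg) was at 81.8 to 510.5 TPM in the tumours, against 25676 to 31240 TPM in the pools. The 12 thyrocyte markers summed to 423.1 to 594.9 TPM in K5-Tert tumours and 453.6 to 1392 TPM in Tert-123 tumours, against 674.3 to 853.3 TPM in Braf tumours, so K5-Tert tumours lay below all Braf tumours. Summed markers of macrophages reached 508.8 to 3861 TPM in K5-Tert tumours and 220.4 to 5203 TPM in Tert-123 tumours, against 610.2 to 1050 TPM in Braf tumours. In such bulk RNA, fewer cells of a type and less RNA per cell cannot be told apart.

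Tert rose with the K5-Tert transgene and did not pass the test with the promoter change. It was at 73.8, 11.2, 19.0 and 53.3 TPM in K5-Tert tumours 1 to 4. In the 7 Tert-123 tumours it ran from 2.65 over a median of 5.88 to 6.23 TPM, and in Braf tumours 1 to 4 it was at 4.96, 4.49, 5.12 and 3.78 TPM. Every K5-Tert tumour lay above every other tumour, while the ranges of Tert-123 and Braf tumours overlapped. The means were 39.3 ± 29.4 TPM in K5-Tert tumours (SD, n = 4), 5.18 ± 1.34 TPM in Tert-123 tumours (SD, n = 7) and 4.59 ± 0.60 TPM in Braf tumours (SD, n = 4).

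On log2(TPM + 1), Tert was higher by 2.50 in K5-Tert than in Braf tumours (SE 0.42, limma adjusted p = 0.00438), and higher by 3.05 after TMM-type scaling (adjusted p = 0.00236). An exact permutation test, two-sided, gave p = 0.0286, the smallest that 70 arrangements allow. Against Tert-123 tumours it was higher by 2.39 (limma adjusted p = 0.00242), or 2.93 after TMM-type scaling, with an exact permutation p of 0.00303, the smallest that 330 arrangements allow. Both rises passed in limma in 29 of 29 alternatives, but not all of these add support. The filter of 10 TPM in 4 libraries kept Tert only through the 4 K5-Tert tumours, the only tumours to reach that level. Leaving out K5-Tert tumours 2, 3 and 4 left tumour 1 alone in its group. Tert-123 and Braf tumours differed by 0.12 (95% interval -0.66 to 0.90, limma adjusted p = 0.9998, exact permutation p = 0.585), and the interval leaves room for a change of either sign. Its width also carries the spread of the K5-Tert tumours, where Tert ran from 11.2 to 73.8 TPM, because the tumour groups shared a fit. A gene-level value does not separate transcripts of the transgene from those of the endogenous gene.

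Within the K5-Tert tumours the lowest and highest levels of Tert were far apart. The highest level, 73.8 TPM, was in tumour 1, which also had the most Krt5, the gene whose promoter drives the transgene (29.2 TPM), but tumour 4, next in Tert with 53.3 TPM, was listed at 0 for Krt5. Krt5 was at 0.412 and 1.21 TPM in tumours 2 and 3, and was picked for mention after its values were seen. The 5 markers of basal keratinocytes, Krt5 among them, summed to 4.15 to 120 TPM in K5-Tert tumours and 14.5 to 30.9 TPM in Tert-123 tumours, against 18.9 to 41.2 TPM in Braf tumours, and their part in the level of Tert was not tested. The template RNA Terc, picked in the same way, was at 35.9, 16.2, 28.5 and 36.2 TPM in K5-Tert tumours and at 4.35 to 56.2 TPM in Tert-123 tumours, against 7.77 to 29.0 TPM in Braf tumours, so its groups overlapped.

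**Figure D1:**
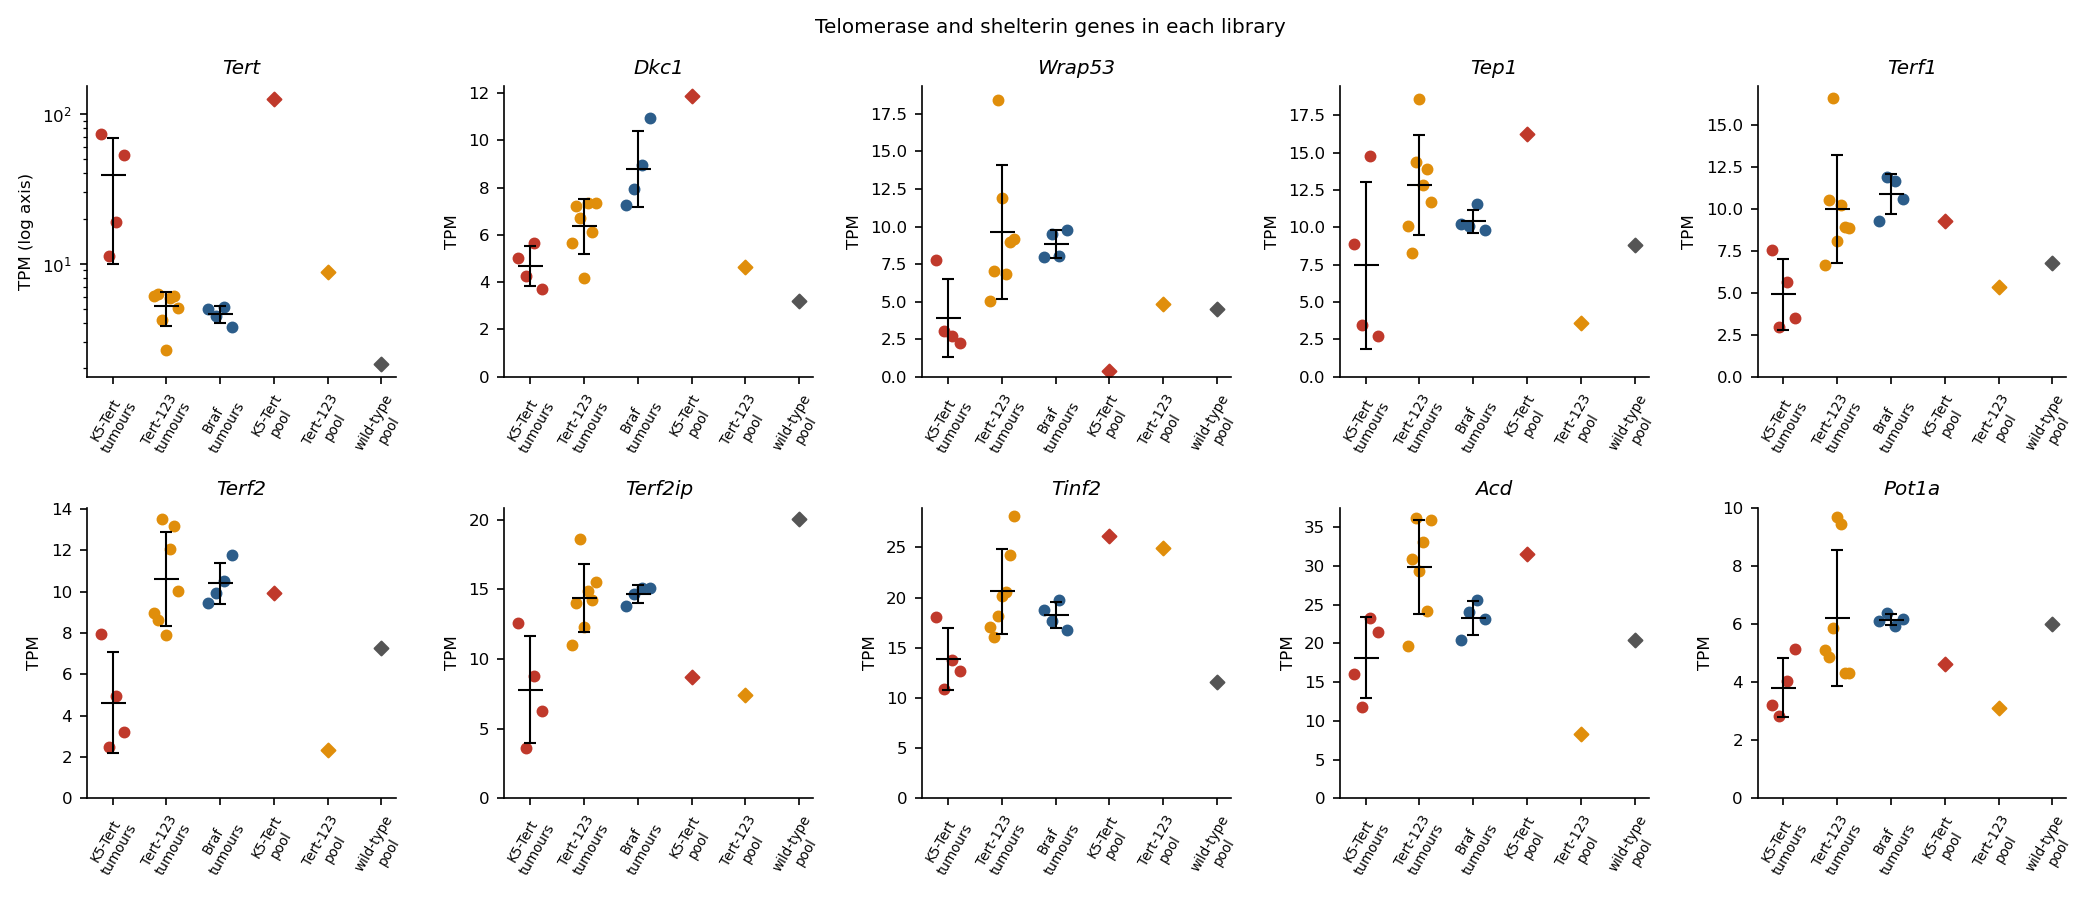
Level of each gene in TPM in every library, with circles for tumours, diamonds for the single pools, and bars for the mean and SD of each tumour group; the axis of Tert is logarithmic and the others start at 0. The 4 K5-Tert tumours lie between 11.2 and 73.8 TPM for Tert, above all other tumours, and low among them for Terf1, Terf2 and Terf2ip.

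None of the 3 other telomerase genes was called higher with K5-Tert. Dkc1 was at 5.03, 4.26, 5.64 and 3.73 TPM in K5-Tert tumours, against 7.26, 7.92, 8.96 and 10.96 TPM in Braf tumours. The groups did not overlap, and Dkc1 fell by 0.78 on the log2 scale (SE 0.23, limma adjusted p = 0.0292), but by 0.27 after TMM-type scaling, which did not pass (adjusted p = 0.404). Tert-123 tumours, at 4.16 to 7.34 TPM with a median of 6.71, lay between and overlapped with both other groups. K5-Tert differed from Tert-123 tumours by -0.37 (limma adjusted p = 0.167), a sign that turned to 0.12 under TMM-type scaling. Dkc1 lies on the X chromosome, and Xist, the RNA of the inactive X, reached 10 TPM in 1 of 4 K5-Tert tumours and 4 of 7 Tert-123 tumours, against 4 of 4 Braf tumours. With Xist as a covariate Dkc1 differed by -0.82 between K5-Tert and Braf tumours (adjusted p = 0.115).

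Wrap53 was at 7.81, 3.02, 2.73 and 2.23 TPM in K5-Tert tumours, against 7.99, 9.53, 8.03 and 9.74 TPM in Braf tumours. K5-Tert tumour 1 lay just under the lowest Braf tumour, and the other 3 lay far below it. In Tert-123 tumours Wrap53 ran from 5.03 over a median of 8.97 to 18.4 TPM, a wider spread than in Braf tumours. It fell by 1.11 in K5-Tert against Braf tumours (SE 0.34, limma adjusted p = 0.0361) and by 1.13 against Tert-123 tumours (adjusted p = 0.0175). Neither fall passed after TMM-type scaling, at -0.63 (adjusted p = 0.135) and -0.66 (adjusted p = 0.0806).

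Tep1 was uneven among the K5-Tert tumours, at 8.90, 3.48, 14.8 and 2.70 TPM, against 8.26 to 18.6 TPM with a median of 12.9 in Tert-123 tumours and 9.80 to 11.5 TPM in Braf tumours. K5-Tert tumour 3 lay above every Braf tumour and tumours 2 and 4 below, so the groups overlapped. Against Tert-123 tumours Tep1 fell by 0.92 (limma adjusted p = 0.0449), a call lost after TMM-type scaling (-0.43, adjusted p = 0.271). Against Braf tumours the difference of -0.68 did not pass (adjusted p = 0.175).

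Of the shelterin genes, the duplex-binding proteins and Terf2ip fell in K5-Tert tumours, and Terf2 alone still passed after TMM-type scaling. Terf2 was at 7.92, 2.50, 4.93 and 3.18 TPM in K5-Tert tumours, against 9.43, 9.92, 10.5 and 11.8 TPM in Braf tumours. All K5-Tert tumours lay below all Braf tumours. In Tert-123 tumours Terf2 ran from 7.90 over a median of 10.1 to 13.5 TPM, so that K5-Tert tumour 1 reached the lowest of them. Terf2 fell by 1.11 against Braf tumours (SE 0.27, limma adjusted p = 0.0170) and by 1.11 against Tert-123 tumours (adjusted p = 0.00813). After TMM-type scaling the differences were -0.62 (adjusted p = 0.0425) and -0.63 (adjusted p = 0.0225), and both passed. With quantile normalization they were -0.59 (adjusted p = 0.0829) and -0.60 (adjusted p = 0.0478). With the length trend removed they were -0.63 (adjusted p = 0.0502) and -0.64 (adjusted p = 0.0251). In these 2 settings only the fall against Tert-123 tumours passed. Without K5-Tert tumours 2 and 4 the differences were -0.64 (adjusted p = 0.275) and -0.65 (adjusted p = 0.269), and neither passed.

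Terf1 was at 7.54, 2.99, 5.62 and 3.49 TPM in K5-Tert tumours, against 9.31, 11.9, 11.7 and 10.6 TPM in Braf tumours. Terf2ip was at 12.6, 3.59, 8.80 and 6.27 TPM in K5-Tert tumours, against 13.8, 14.6, 15.1 and 15.1 TPM in Braf tumours. For both genes every K5-Tert tumour lay below every Braf tumour, with tumour 1 nearest to them. Terf1 fell by 1.07 against Braf tumours (SE 0.28, limma adjusted p = 0.0202) and by 0.92 against Tert-123 tumours, where it ran from 6.65 over a median of 8.91 to 16.6 TPM (adjusted p = 0.0176). Terf2ip fell by 0.94 against Braf tumours (SE 0.27, limma adjusted p = 0.0290) and by 0.90 against Tert-123 tumours, where it ran from 11.02 over a median of 14.2 to 18.6 TPM (adjusted p = 0.0175). After TMM-type scaling Terf1 was at -0.57 (adjusted p = 0.0611) and -0.42 (adjusted p = 0.0994), and Terf2ip at -0.42 (adjusted p = 0.108) and -0.38 (adjusted p = 0.0964), and none of these passed.

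The bridging and overhang-binding members gave 1 call among the tumours. Acd was at 16.0, 11.8, 23.3 and 21.4 TPM in K5-Tert tumours and ran from 19.7 over a median of 30.9 to 36.2 TPM in Tert-123 tumours, against 20.5, 24.1, 25.7 and 23.1 TPM in Braf tumours. It fell by 0.71 against Tert-123 tumours (limma adjusted p = 0.0272), a call lost after TMM-type scaling (-0.14, adjusted p = 0.669), and did not pass against Braf tumours (-0.38, adjusted p = 0.246, and of the opposite sign after TMM-type scaling, at 0.18). Tinf2 ranged from 10.8 to 18.1 TPM in K5-Tert tumours and from 16.1 to 28.1 TPM in Tert-123 tumours, against 16.8 to 19.7 TPM in Braf tumours, and passed no tumour comparison (adjusted p = 0.0508 at the least, against Tert-123 tumours). Pot1a ranged from 2.84 to 5.13 TPM in K5-Tert tumours and from 4.30 to 9.66 TPM in Tert-123 tumours, against 5.94 to 6.38 TPM in Braf tumours. It lay below all Braf tumours in all 4 K5-Tert tumours but did not pass the test (-0.60, limma adjusted p = 0.118).

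Some of these values are less certain than others. Opposite-strand exons of Gmpr2 cover 31.2% of the exon bases of Tinf2, and those of Carmil2 cover 33.3% of Acd, and no source used here says whether counting used strand. Pot1a has a mouse paralog, Pot1b, which limits trimming of the telomere's C-rich strand. Pot1b, picked after its values were seen, was at 2.42, 0.482, 1.74 and 0.163 TPM in K5-Tert tumours, against 2.86, 4.40, 3.56 and 3.42 TPM in Braf tumours. These 2 groups did not overlap, where 17.5% of all genes lay below in the same way. In Tert-123 tumours Pot1b ran from 2.03 to 5.85 TPM, which overlapped with K5-Tert tumours.

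Counted over the 10 members, 1 was higher (Tert) and 5 were lower (Dkc1, Wrap53, Terf1, Terf2 and Terf2ip) in K5-Tert than in Braf tumours at an adjusted p under 0.05, where 0.438% of all 13463 genes tested were called higher and 17.0% lower. After TMM-type scaling 1 member was higher (Tert) and 1 lower (Terf2), with 3.62% and 3.89% of all genes called. The members' median change was -0.73, beside -0.49 over all genes, and -0.23 beside -0.01 after TMM-type scaling. Groups did not overlap for Tert above (0.832% of all genes) and for 6 members below (17.5% of all genes). In K5-Tert against Tert-123 tumours, 1 member was higher and 6 were lower (0.520% and 22.2% of all genes), and after TMM-type scaling 1 and 1 (4.35% and 4.50%). There the groups did not overlap for Tert above (0.149% of all genes) and for 0 members below (5.50%). With Xist as a covariate the 5 lower calls against Braf tumours became 0, and lower calls over all genes went from 2293 to 226. Terf2 was then at -1.195 (limma adjusted p = 0.0761), Terf1 at -0.93 (adjusted p = 0.132), Terf2ip at -0.91 (adjusted p = 0.136) and Wrap53 at -1.06 (adjusted p = 0.154). Against Tert-123 tumours these 4 still passed with it. Sex is not in the labels, and its part was not tested. Without K5-Tert tumour 2, or without tumour 4, the 5 lower calls against Braf tumours became 0, and the 6 against Tert-123 tumours became 1. The differences from Braf tumours stayed negative, at -0.66 (Terf2ip) to -1.05 (Wrap53) without tumour 2 (adjusted p = 0.0602 to 0.105) and at -0.70 (Dkc1) to -0.996 (Terf2) without tumour 4 (adjusted p = 0.0633 to 0.119). K5-Tert tumour 1, which had the most Tert and Malat1 within the range of Braf tumours, differed from them when taken alone by -0.35 for Terf2, -0.47 for Terf1, -0.21 for Terf2ip, -0.15 for Wrap53 and -0.68 for Dkc1, where limma took the lone library to vary like the others and none passed (adjusted p = 0.998 for Terf2, Terf1 and Terf2ip, 1 for Wrap53 and 0.966 for Dkc1). Markers of cell types were counted in the same comparison. Of 11 thyrocyte markers tested, 4 were lower in K5-Tert than in Braf tumours (median -1.18), and 1 was after TMM-type scaling (median -0.63). The markers were not uniformly lower. Their changes ran from -1.37 to 0.47, and from -0.79 to 1.06 after TMM-type scaling, with 0 called higher. Tg was at 84.1 to 272.2 TPM in K5-Tert tumours, against 96.5 to 256.8 TPM in Braf tumours. As deposited, the medians of fibroblast, endothelial and macrophage markers were 0.84, 0.53 and 0.34, and after TMM-type scaling they were 1.40, 0.94 and 0.91. Under either setting 0 of 6 fibroblast and 0 of 6 endothelial markers were called, and 1 of 9 macrophage markers was called higher. The part of these markers and of the lower general level of tumours 2, 3 and 4 in the members' calls was not tested beyond these settings.

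In Tert-123 against Braf tumours limma called 0 of the 10 members and 0% of all genes, with 184 genes and 0 members at an unadjusted p under 0.05. The differences lay between -0.41 (Dkc1, 95% interval -0.83 to 0.01) and 0.32 (Acd, 95% interval -0.12 to 0.77). Terf2, at 0.01 (95% interval -0.50 to 0.51), and Wrap53, at 0.03 (95% interval -0.61 to 0.66), were closest to 0. No member's groups lay apart (0.0371% of all genes lay above and 0.178% below). The intervals show what these 11 libraries could not separate, and do not show that the genotypes were alike.

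**Figure D2:**
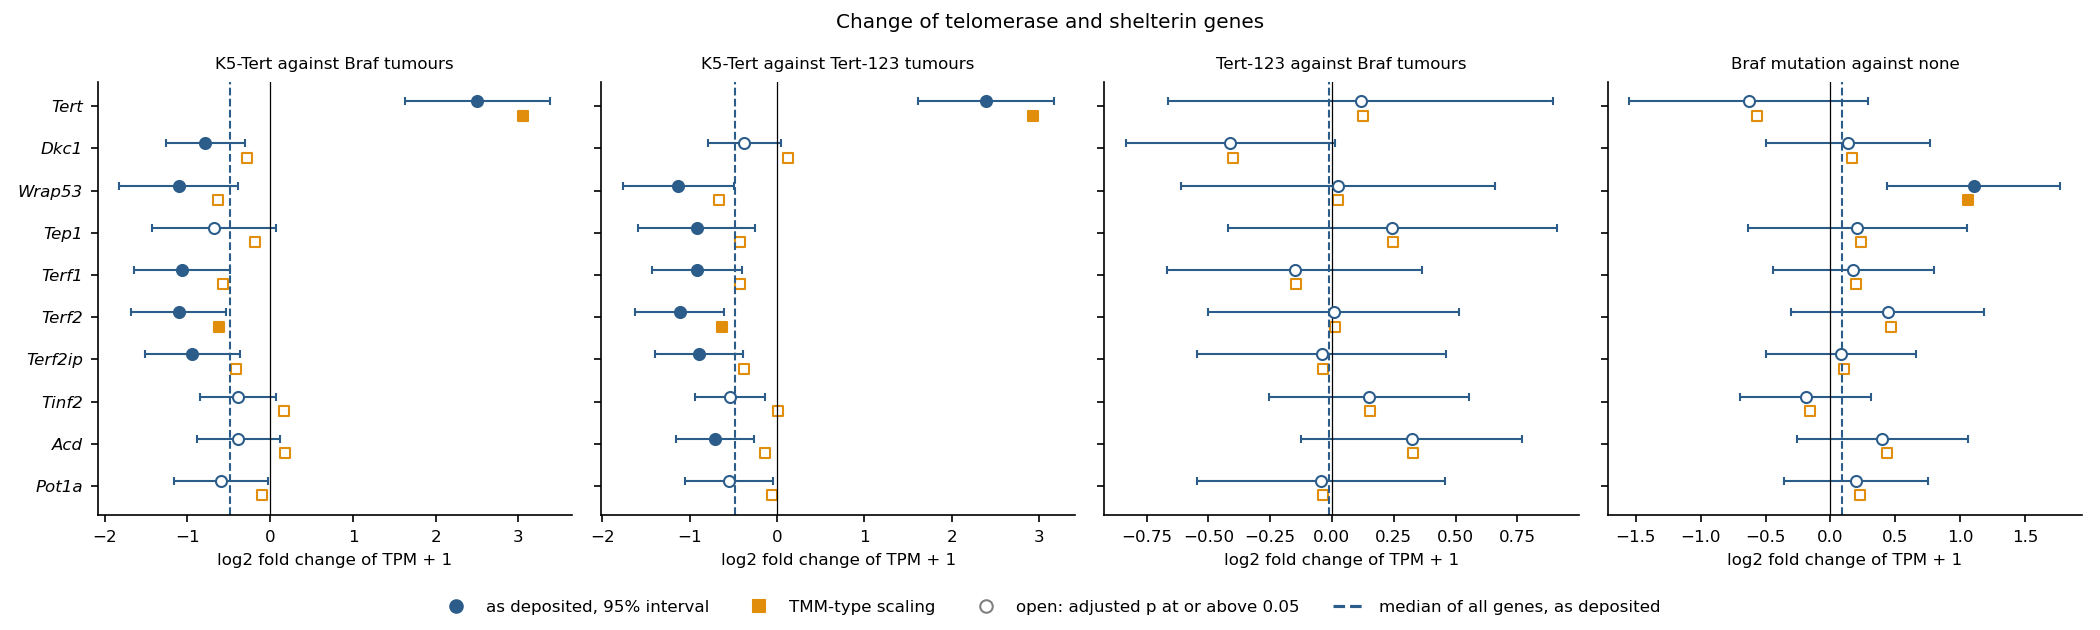
Difference of each gene on log2(TPM + 1) in 4 comparisons, with circles for the values as deposited and their 95% intervals, squares after TMM-type scaling, filled where adjusted p was under 0.05, and a dashed line at the median of all genes. Tert stands at 2.50 against Braf tumours, and in both comparisons of K5-Tert tumours Terf2 is the only lower member whose square is filled.

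The make-up of shelterin, as shares of the summed TPM of its 6 genes, does not depend on a library's scaling. Acd and Tinf2 took the largest shares by mean in all 3 tumour groups. Acd had 34.6% ± 7.28 in K5-Tert tumours (SD, n = 4), 32.4% ± 3.31 in Tert-123 tumours (SD, n = 7) and 27.8% ± 1.16 in Braf tumours (SD, n = 4). Tinf2 had 26.6% ± 3.79 in K5-Tert tumours and 22.7% ± 4.14 in Tert-123 tumours, against 21.8% ± 1.77 in Braf tumours. Terf2 had 8.40% ± 2.63 in K5-Tert tumours and 11.6% ± 2.06 in Tert-123 tumours, against 12.4% ± 1.11 in Braf tumours. Terf2ip had 14.0% ± 3.86 in K5-Tert tumours and 15.7% ± 1.05 in Tert-123 tumours, against 17.5% ± 0.45 in Braf tumours. By library, the share of Terf2ip was 19.2%, 10.4%, 14.5% and 12.02% in K5-Tert tumours, against 17.1% to 18.1% in Braf tumours, so tumour 1 lay above them and the other 3 below. The share of Terf2 was 12.1%, 7.21%, 8.14% and 6.10% in K5-Tert tumours, against 11.7% to 14.1% in Braf tumours, so tumour 1 lay among the Braf tumours and the other 3 below them. Terf1 had 9.04% ± 2.01 in K5-Tert tumours and 10.8% ± 2.31 in Tert-123 tumours, against 12.97% ± 0.90 in Braf tumours, with all 4 K5-Tert tumours below all Braf tumours. Pot1a had 7.40% ± 2.10 in K5-Tert tumours and 6.87% ± 2.56 in Tert-123 tumours, against 7.37% ± 0.48 in Braf tumours. The Tert-123 pool was unlike the rest, with 48.5% Tinf2 and 4.50% Terf2, against 16.0% and 10.1% in the wild-type pool. These shares were compared without a test.

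**Figure D3:**
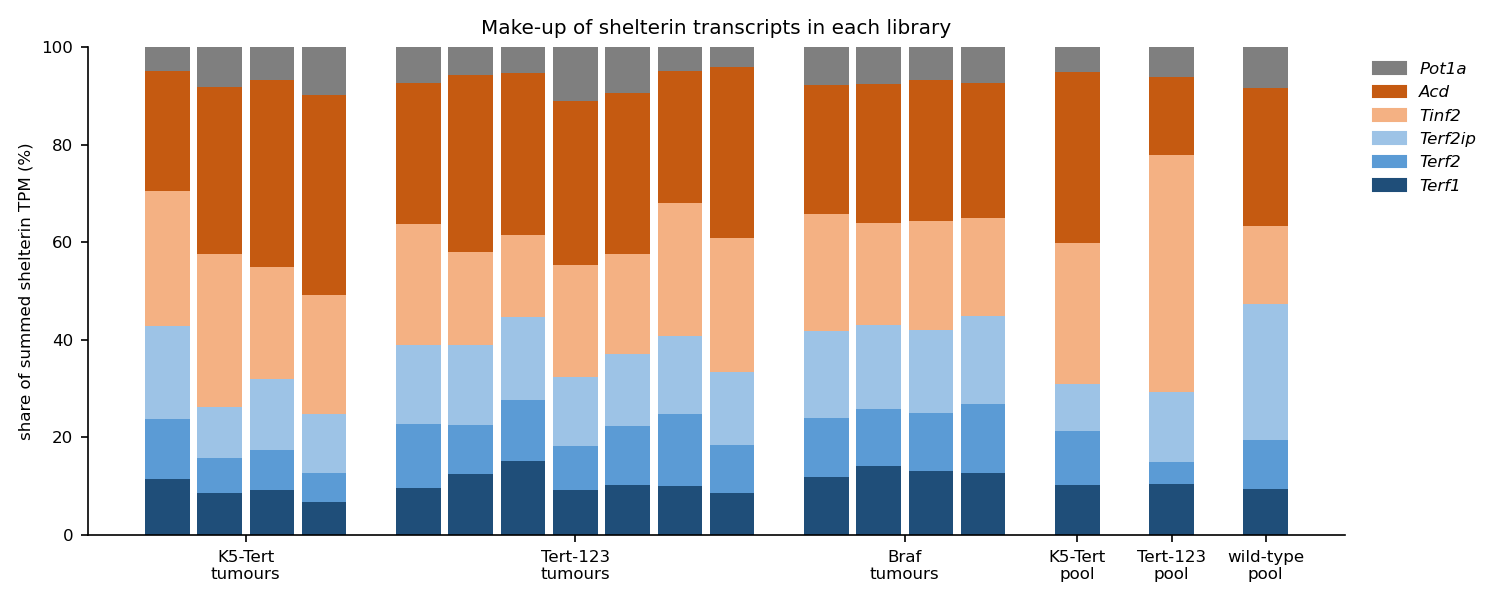
Share of each shelterin gene in their summed TPM, in percent, with 1 bar for each library. Acd takes more and Terf1 and Terf2 less in K5-Tert tumours 2 to 4 than in Braf tumours, and Tinf2 takes 48.5% in the Tert-123 pool.

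Ordered by mean level, Braf tumours ran Acd, Tinf2, Terf2ip, Terf1, Tep1, Terf2, Wrap53, Dkc1, Pot1a and Tert from high to low. The ranges of Terf1, Tep1, Terf2, Wrap53 and Dkc1 overlapped from each to the next, and Acd, Tinf2, Terf2ip, Pot1a and Tert each stood clear of their neighbours. By mean, Tert was the lowest member in Tert-123 and Braf tumours and the highest in K5-Tert tumours, where its range still overlapped with that of Acd. By median, Pot1a at 5.10 TPM lay below Tert at 5.88 TPM in Tert-123 tumours. In K5-Tert and Tert-123 tumours every gene's range overlapped with that of the next.

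The Braf mutation was compared with its absence over all 18 libraries, with the Tert allele as a further term. Wrap53 alone of the 10 members passed, where 15.1% of 13532 genes were called higher and 11.2% lower. Wrap53 was at 2.23 to 7.81 TPM in K5-Tert tumours, against 0.360 TPM in the K5-Tert pool. It was at 5.03 to 18.4 TPM in Tert-123 tumours, against 4.84 TPM in the Tert-123 pool, and at 7.99 to 9.74 TPM in Braf tumours, against 4.52 TPM in the wild-type pool. Each of the 15 tumours lay above the pool with its Tert allele, which restates the values behind the call, with 1 pool for each allele. The rise was 1.10 (SE 0.32, limma adjusted p = 0.0146), and 1.06 after TMM-type scaling (adjusted p = 0.00756, with 21.4% of genes called higher and 16.5% lower). Without the K5-Tert pool it was 0.80 and did not pass (adjusted p = 0.109), while Dkc1 at 0.77 (adjusted p = 0.0358), Terf2 at 1.15 (adjusted p = 0.0137) and Acd at 0.98 (adjusted p = 0.0236) then passed, so 1 library decides which members are called. Tert differed by -0.63 (limma adjusted p = 0.314), and this value ran from -1.32 without the wild-type pool over 0.03 without the K5-Tert pool to 0.51 with library weights, so its sign is not settled. The source of the tissue moves with the Braf mutation here, since all libraries without it are pools with far more Tg, and the part of either was not tested.

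Among the pools, which have 1 library each and no test, Tert was at 125.3 TPM in the K5-Tert pool and 8.79 TPM in the Tert-123 pool, against 2.15 TPM in the wild-type pool. On log2(TPM + 1) these are ratios of 5.33 and 1.64, with a median over all genes of 0.26 and 0. In the K5-Tert pool 3 members were more than 2-fold higher (Tert, Dkc1 at 1.61 and Tinf2 at 1.11) and 2 lower (Wrap53 at -2.02 and Terf2ip at -1.12), where 14.1% of genes were higher and 8.22% lower by as much. In the Tert-123 pool 2 members were higher (Tert and Tinf2, at 1.05) and 4 lower (Tep1 at -1.10, Terf2 at -1.32, Terf2ip at -1.32 and Acd at -1.21), where 13.0% of genes were higher and 11.5% lower. Markers of other cells stood out in the Tert-123 pool. Summed endothelial markers were at 826.2 TPM in it and 85.4 TPM in the K5-Tert pool, against 300.1 TPM in the wild-type pool. Its 6 T cell markers summed to 174.9 TPM, against 0 TPM in the K5-Tert pool and 0.851 TPM in the wild-type pool, and its C cell and parathyroid markers to 2691 TPM, against 266.8 TPM in the K5-Tert pool and 413.1 TPM in the wild-type pool. Their part in the members' values was not tested.

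**Figure D4:**
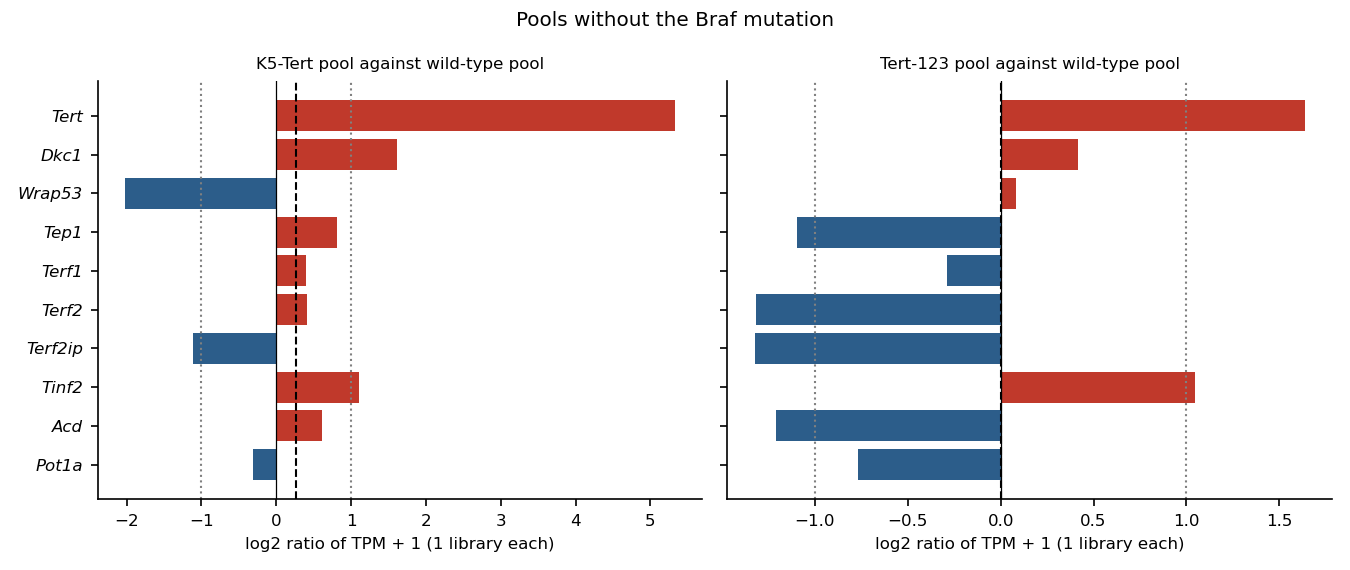
Log2 ratio of TPM + 1 of each gene in the K5-Tert pool (left) and the Tert-123 pool (right) to the wild-type pool, 1 library each, with dotted lines at 2-fold and a dashed line at the median of all genes. Tert has the longest bar in both, at 5.33 and 1.64.

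Other genes of telomere biology were counted in the same fits, where 0.438% of all genes were called higher and 17.0% lower in K5-Tert than in Braf tumours. Of 15 genes for telomerase assembly and RNA, 0 were higher and 3 lower, with a median of -0.65 beside -0.49 over all genes: Nvl, an ATPase, by -1.05 (limma adjusted p = 0.0126), Zcchc8, of the nuclear exosome targeting complex, by -0.96 (adjusted p = 0.0189), and Gar1, a partner of dyskerin, by -0.99 (adjusted p = 0.0488). Of 14 genes for the CST complex and telomere replication (median -0.60), 0 were higher and 2 lower: the helicase Rtel1 by -1.16 (adjusted p = 0.0143) and Ctc1, the large subunit of CST, by -0.83 (adjusted p = 0.0433). Of 22 other telomere-associated factors (median -0.74), 0 were higher and 10 lower, among them the telomere-binding zinc finger protein Zbtb48 at -1.09 and the chromatin remodeller Atrx at -1.10. After TMM-type scaling, with 3.89% of all genes called lower, each of these 3 lists had 1 lower call. Nvl was then at -0.60 (adjusted p = 0.0268), Rtel1 at -0.70 (adjusted p = 0.0422) and Atrx at -0.53 (adjusted p = 0.0398). In K5-Tert against Tert-123 tumours 4 of 15, 4 of 14 and 11 of 22 were lower and 0 higher, with the lowest p for Nvl, Rtel1 and Zbtb48, where 0.520% of all genes were called higher and 22.2% lower. After TMM-type scaling the lower calls there were 2 of 15, 1 of 14 and 1 of 22, and 1 of the 15 was called higher, where 4.50% of all genes were called lower and 4.35% higher. In Tert-123 against Braf tumours 0 genes of any list passed.

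Regulators of the Tert promoter were read next to the sequence above. Of 20 (median -0.60), 0 were higher and 5 lower in K5-Tert than in Braf tumours (0.438% and 17.0% of all genes), among them the ETS factors Etv4 at -1.07 (limma adjusted p = 0.0152), Etv1 at -1.23 (adjusted p = 0.0223) and Etv5 at -0.88 (adjusted p = 0.0234), and Gabpb2 at -0.95 (adjusted p = 0.0290). After TMM-type scaling none of these 4 passed, and 1 other regulator was called higher. In K5-Tert against Tert-123 tumours 0 regulators were higher and 8 lower (0.520% and 22.2% of all genes), and 1 and 1 after TMM-type scaling (4.35% and 4.50%). Etv4 was the lower one, at -0.59 (limma adjusted p = 0.0483) after TMM-type scaling and -1.16 (adjusted p = 0.00589) as deposited. The partner Gabpa, which binds the mutant TERT promoter in human cancer cells and was picked after its values were seen, was at 14.1 to 20.5 TPM in Tert-123 tumours, against 15.8 to 19.3 TPM in Braf tumours. With the Braf mutation 3 regulators rose and 4 fell, where 15.1% of all genes were called higher and 11.2% lower. Etv4 was at 15.7 to 70.2 TPM across the tumours and listed at 0 in all 3 pools. Etv1 rose by 2.96 (limma adjusted p = 1.25e-06) and Etv5 by 1.16 (adjusted p = 0.000808), and the transcription factor Myc fell by 1.37 (adjusted p = 0.00110). Of the 15 assembly and RNA genes 5 rose and 0 fell with the mutation (15.1% and 11.2% of all genes). Terc, among those that rose, was at 4.35 to 56.2 TPM in the tumours and 16.1 TPM in the wild-type pool but was listed at 0 in the K5-Tert and Tert-123 pools, so no fold is given. Shq1, an assembly factor of dyskerin particles, rose by 1.08 (limma adjusted p = 0.0110), and Ruvbl2, an ATPase that helps assemble telomerase, by 0.69 (adjusted p = 0.0185).

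Across the 15 tumours, the genes whose levels ran most like those of Tert were Gem (Spearman rho 0.77), C1qtnf12 (0.75), Rpl3 (0.72), Cox7a2l (0.71) and Selenow (0.71). Those most like the mean of the 6 shelterin genes were Fam114a2, Vps53, Glis3, Cd2bp2 and Zfp335, with rho of 0.96 each. Among the members, Terf2 and Terf2ip ran together (rho 0.88), as did Terf1 and Terf2ip (rho 0.85), and Tert ran against Wrap53 (rho -0.84). Within the 7 Tert-123 tumours these were 0.75, 0.68 and -0.68. All of these points share the libraries' scaling and composition, and the values are descriptions. K5-Tert tumours 2, 3 and 4 lie below all other tumours for Wrap53, Terf1, Terf2 and Terf2ip, while K5-Tert tumour 1 lies within the range of the Tert-123 tumours for Wrap53, Terf1, Terf2 and Terf2ip.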

How the data were processed

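RNA was taken from 9000 to 20000 sorted cells per library and amplified by 14 PCR cycles before paired 100 bp sequencing, per the series' design text. The deposited values are TPM as far as the values show: each column sums to 1000000 and the lowest values fall with transcript length (rho -0.61 over 4074 genes). The authors' aligner, annotation and build: not given in the sources used here. Read depth is unknown, so no counting interval is given. Of 23652 entries, 26 were named as dates and dropped; their TPM came to 0.0455% of a library or less.

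Genes with a mean of at least 1 TPM were fitted as log2(TPM + 1), which understates changes of low genes, with limma 3.58.1 in R 4.3.3 and a mean-variance trend. The 3 tumour groups shared 1 fit, with 12 residual degrees of freedom. For the Braf mutation all 18 libraries were fitted with the Tert allele as a further term, with 14. All 10 members passed the filter. Tests were two-sided, with Benjamini-Hochberg adjustment over all genes tested and a threshold of 0.05. The method was tested on simulated data, but the outcome is not given here and no call rests on it. Alternatives were pseudocounts of 0.5 and 5, no filter, a filter of 10 TPM in 4 libraries, TMM-type scaling (trimming 30% of ratios, 5% of levels), quantile normalization, rescaling without Rpph1, removal of a length trend, library weights, Xist as a covariate, only the groups compared, and leaving out libraries. Leaving out K5-Tert tumours 2, 3 and 4 together, and TMM-type scaling without tumours 2 and 4, were added after seeing the data.

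Members and lists were chosen with earlier results of these data known. Named besides the members were up to 4 genes per telomere list past the threshold with the smallest p, and the 5 genes most like Tert or shelterin; others are said to be picked after their values were seen. Libraries are numbered within groups in the order of the series. Promoters are RefSeq, GRCm38.p6, with entries for 8 of the 10 members; overlaps of exons are from the reference annotation.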

Additional observations from a re-analysis of the deposited data

Results flagged for a closer look

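Among 30 combinations of a member and a tumour group, 2 had a library far from the others. Chance gives about 1 in 20, so this number is close to what chance alone would give. Terf1 was at 16.6 TPM in Tert-123 tumour 3, against 6.65 to 10.6 TPM in the other 6. Wrap53 was at 7.81 TPM in K5-Tert tumour 1, against 2.23 to 3.02 TPM in the other 3.

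For 3 members all K5-Tert tumours lay below all Braf tumours while the K5-Tert pool lay above the wild-type pool, with log2 ratios in the pools of 1.61 for Dkc1, 0.40 for Terf1 and 0.41 for Terf2. Of all genes, 17.5% lay below in the tumours in the same way. The median log2 ratio of these pools over all genes was 0.26, so Terf1 and Terf2 were close to it. How many genes showed both was not counted, and the difference between tumours and pools was not tested.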

How the results depend on the processing

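The rise of Tert passed in limma under every alternative run, with log2 values of 1.93 to 3.75 against Braf tumours and 1.86 to 3.64 against Tert-123 tumours. The filter of 10 TPM is no separate support, because only K5-Tert tumours brought Tert past it. In the exact test against Braf tumours it was 2.09 to 2.96 with each library left out (p = 0.0571 without any 1 Braf tumour, where the smallest possible is 0.0286), 2.80 without K5-Tert tumours 2 and 4 and 2.98 with TMM-type scaling as well (p = 0.0667 each, the smallest possible there). The 5 members lower in K5-Tert than in Braf tumours became 3 with no filter. With the filter of 10 TPM they became 3 because it removed Dkc1 and Wrap53, and the 3 that stayed kept their calls. They became 1 with TMM-type scaling, and 0 with quantile normalization, the length trend removed, Xist as a covariate or only the groups compared. They also became 0 without tumours 2 and 4, with and without TMM-type scaling. Leaving out each library gave 0 to 5, with 0 without K5-Tert tumour 2 or 4 or Braf tumour 3 or 4, and 1 without Braf tumour 2. The 6 lower than in Tert-123 tumours became 1 with TMM-type scaling, quantile normalization or the length trend removed, 2 with only the groups compared, and 0 without tumours 2 and 4 (with and without TMM-type scaling) or without 2, 3 and 4, and leaving out each library gave 1 to 7. Tep1 turned to 0.0707 there with TMM-type scaling without tumours 2 and 4. The 1 member higher with the Braf mutation became 0 with the filter of 10 TPM, which removed Wrap53, 3 with library weights, 2 without K5-Tert tumours 2, 3 and 4, and 1 to 3 with each library left out. The difference of Tert with the Braf mutation, which passed in 0 of 31 alternatives, turned to 0.51 with library weights. In the pools, a pseudocount of 5 left 0 of 2 members lower in the K5-Tert pool, and 0 of 2 higher and 1 of 4 lower in the Tert-123 pool. The filter of 10 TPM left 1 lower in the K5-Tert pool, and rescaling without Rpph1 left 1 higher in the Tert-123 pool. Over all genes, K5-Tert against Braf tumours gave 59 higher and 2293 lower, 487 and 524 with TMM-type scaling, and 8 and 13 without tumours 2 and 4. Where no construction shows it, the cause was not tested. A count test was not run, because TPM keeps no whole reads. No paired analysis was possible because the labels give nothing that links libraries of different groups.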
